A study of Homo sapiens with 6 samples.

Results

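The 6 human actin isoforms and 4 transcription factors that act on actin genes, SRF, MRTFA, MRTFB and MYOCD, were followed in U251 cells with and without a CRISPR lesion in NUAK2. These 10 genes of the 28395 in the count table were taken by their gene identifiers. They were picked with their WT and NUAK2-CR values already known, ACTG2 and ACTA2 having moved most, so the values between the groups are given as a description and carry no test. Of the 10 members, 7 had enough reads to enter the genome-wide fit, namely 4 of the 6 actins and 3 of the 4 regulators.

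Actin is the main building block of microfilaments. Vertebrates use a pair of cytoplasmic isoforms in every cell, encoded by ACTB and ACTG1, and 4 muscle isoforms, encoded by ACTA1 in skeletal muscle, ACTC1 in heart, ACTA2 in vascular smooth muscle and ACTG2 in visceral smooth muscle. Serum response factor, encoded by SRF, binds a DNA element called the CArG box near the start of many actin and cytoskeletal genes. Its coactivators MRTF-A and MRTF-B, encoded by MRTFA and MRTFB, bind unpolymerized actin through RPEL repeats and are held out of the nucleus while monomer is plentiful, so that polymerization of actin frees them to act with SRF. Myocardin, encoded by MYOCD, is the cardiac and smooth muscle member of the same coactivator family. A separate set of SRF partners, the ternary complex factors (TCFs), leads SRF to immediate early genes in response to growth signals.

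U251 is a glioblastoma cell line, and NUAK2 encodes a kinase of the AMPK-related family. Poly(A) RNA was sequenced from 3 WT libraries of the untargeted line and 3 NUAK2-CR libraries, the latter grown from single sorted cells that had received Cas9 and 1 guide from fluorescent lentiviral vectors. No control vector is named for the WT cells, and the labels do not say which clone or how many clones the NUAK2-CR libraries came from. A legend among the study's supplements names clone CR-3 for an enrichment analysis of such data, and if all libraries came from 1 clone, its own traits and effects of the lesion cannot be told apart. The labels do not say whether the libraries of a group were separate cultures (the study's statistics section speaks in general of independent experiments), and p-values then measure only the spread between these libraries, which may be technical. Library totals ran from 29648445 to 55574081 reads assigned to genes, the first principal component of the log2 values took 79.6% of the variance and separated the groups, and NUAK2 itself fell from 1654 ± 243 to 869.5 ± 83.2 normalized counts (SD, n = 3; log2 fold change -0.93, SE 0.11, adjusted p = 1.8e-05). Here and throughout, normalized counts are reads scaled to the mean effective library size, fold changes are NUAK2-CR against WT, and adjusted p-values come from edgeR's quasi-likelihood test over 14873 genes.

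The stretches upstream of the start sites are shown first, because they hold the element that SRF binds. A CArG box is 2 C, then 6 bases that are each A or T, then 2 G, a form that reads the same on both strands. RefSeq windows of 250 bases before the start (GRCh38.p14) were at hand for 8 of the 10 members. They came to 17 windows in all because several members have more than 1 start. ACTB and MYOCD had no window and were not searched. The 4 windows below belong to members with many reads in at least 1 group. Capitals mark CArG boxes, and in ACTA2 they mark 10-base stretches of the same form with 1 core base that is G or C.
ACTG2, chr2:73892758-73893007, plus strand: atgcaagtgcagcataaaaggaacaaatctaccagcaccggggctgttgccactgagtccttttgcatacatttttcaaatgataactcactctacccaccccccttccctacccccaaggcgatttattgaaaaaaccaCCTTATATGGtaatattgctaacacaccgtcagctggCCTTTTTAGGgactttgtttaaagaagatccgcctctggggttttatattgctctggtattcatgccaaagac
ACTA2, chr10:88952774-88953023, minus strand: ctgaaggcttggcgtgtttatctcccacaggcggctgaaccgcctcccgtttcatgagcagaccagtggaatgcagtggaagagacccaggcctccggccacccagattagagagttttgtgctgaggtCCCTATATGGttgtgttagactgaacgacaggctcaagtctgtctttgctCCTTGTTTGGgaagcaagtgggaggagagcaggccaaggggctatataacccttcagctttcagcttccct
ACTG1, chr17:81512800-81513049, minus strand: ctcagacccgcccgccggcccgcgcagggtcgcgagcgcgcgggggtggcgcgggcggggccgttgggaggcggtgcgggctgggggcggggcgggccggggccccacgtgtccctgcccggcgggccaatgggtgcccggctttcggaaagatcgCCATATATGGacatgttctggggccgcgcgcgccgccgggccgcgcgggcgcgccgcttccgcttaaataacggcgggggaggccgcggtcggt
SRF, chr6:43171019-43171268, plus strand: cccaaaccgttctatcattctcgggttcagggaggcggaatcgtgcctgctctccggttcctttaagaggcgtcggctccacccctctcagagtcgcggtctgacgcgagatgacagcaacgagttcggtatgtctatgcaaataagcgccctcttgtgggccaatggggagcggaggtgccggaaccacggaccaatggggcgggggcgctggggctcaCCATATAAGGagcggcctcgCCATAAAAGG

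A CArG box lay in a window of 5 of the 8 members with a window: ACTA1, ACTC1, ACTG1, ACTG2 and SRF. Counted by window, 5 of the 17 windows of members held a box, as did 1.16% of all 35116 windows at hand. ACTG2 held CCTTATATGG, whose first base is 110 bases before the start, and CCTTTTTAGG, at 73. SRF held CCATATAAGG and CCATAAAAGG at 30 and 10 bases before its start, ACTG1 held CCATATATGG at 94, and ACTA1 and ACTC1 each held a single box, CCAAATATGG at 97 and CCAAATAAGG at 109. Neither ACTA2 window held a full box, and the one printed held the near forms CCCTATATGG at 121 and CCTTGTTTGG at 71. That form, with 1 changed core base, occurred in 5.96% of all windows. No window of MRTFA or MRTFB held either form. These matches describe letters in these stretches, and the near form was searched after the ACTA2 values had been seen.

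**Figure D1:**
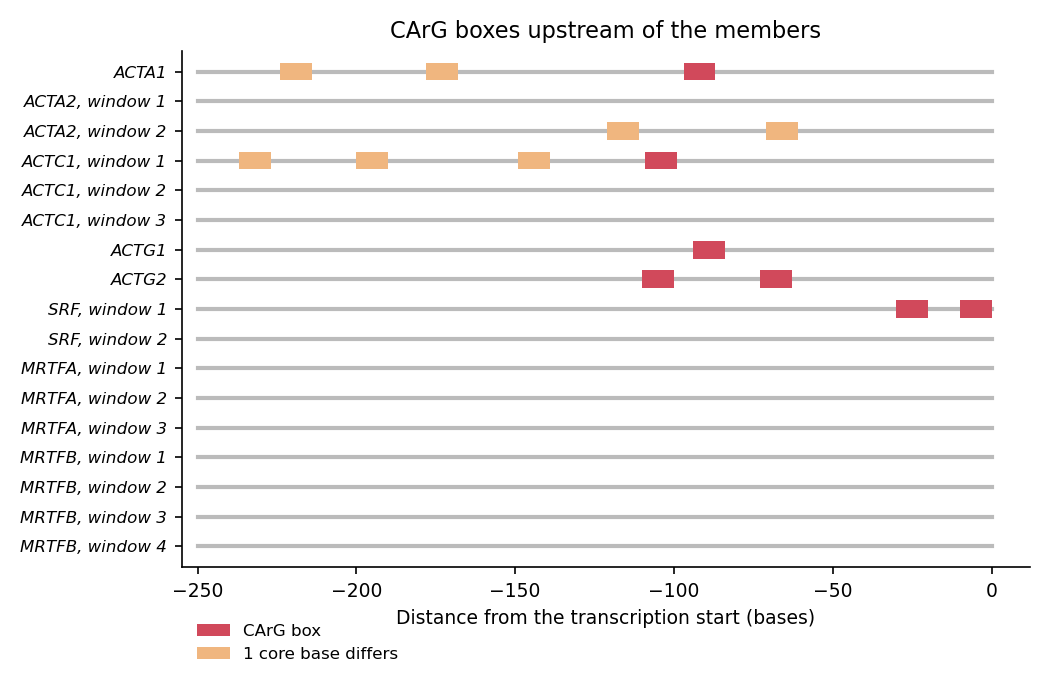
CArG boxes (red) and the form with 1 changed core base (orange) in the 17 windows of 250 bases upstream of the members' starts, by distance from the start in bases. Boxes stand in 1 window each of ACTA1, ACTC1, ACTG1, ACTG2 and SRF, near forms in ACTA1, ACTA2 and ACTC1, and the MRTFA and MRTFB windows are empty.

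The smooth muscle actins were the members that differed most between the groups. ACTG2 (gene 72, chromosome 2, 73893008 to 73919865), the enteric smooth muscle isoform with a pair of CArG boxes, had 31.9, 27.0 and 33.3 normalized counts in the WT libraries and 4082, 4480 and 4477 in the NUAK2-CR libraries. It was nearly silent in WT and well expressed in every NUAK2-CR library, and the groups lay far apart. Its mean went from 30.7 ± 3.31 to 4347 ± 229 (SD, n = 3), 141-fold, a log2 fold change of 7.14 (SE 0.11). The raw reads behind these values were 48, 28 and 31 in WT and 3215, 3715 and 4078 in NUAK2-CR.

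ACTA2 (gene 59, chromosome 10, 88935074 to 88991337), the vascular smooth muscle isoform best known as a myofibroblast marker, had 92.3, 97.4 and 89.2 normalized counts across WT and 2023, 2190 and 2200 across NUAK2-CR. Each group was tight and no NUAK2-CR library came near the WT range. The mean went from 93.0 ± 4.15 to 2138 ± 99.6 (SD, n = 3), 23.0-fold, a log2 fold change of 4.52 (SE 0.10). The order of the pair changed as well: per kilobase of transcript, the ratio of ACTG2 to ACTA2 was 0.298 ± 0.0445 in WT and 1.83 ± 0.0126 in NUAK2-CR (SD, n = 3). In bulk RNA, more cells that express a gene and more RNA per cell cannot be told apart.

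The ACTA2 locus overlaps FAS, which encodes a death receptor and runs on the opposite strand from 88964050 to 89017059. Reads were counted on default settings, under which featureCounts ignores strand, so reads of the 2 genes in the shared stretch cannot be told apart. FAS rose from 232.7 ± 42.3 to 575.4 ± 69.8 normalized counts (SD, n = 3; log2 fold change 1.31, SE 0.15, adjusted p = 1.23e-05). The canonical ACTA2 transcript, on the minus strand, starts at 88952773 and lies outside FAS. In NUAK2-CR the FAS reads (415, 451 and 597) were fewer than those of ACTA2 (1593, 1816 and 2004). In WT the FAS reads (298, 290 and 205) were more than those of ACTA2 (139, 101 and 83). The antisense gene ACTA2-AS1, at the other end of ACTA2, had 0 to 5 reads per library.

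The cytoplasmic isoforms made up nearly all actin RNA in both groups. ACTB (gene 60, chromosome 7, 5527148 to 5530601), which encodes beta-actin, had 484800, 458300 and 476700 normalized counts across WT and 627600, 626900 and 625100 across NUAK2-CR. All NUAK2-CR libraries were above all WT libraries, from 473300 ± 13580 to 626500 ± 1267 (SD, n = 3), and the difference was 1.32-fold (log2 fold change 0.40, SE 0.056). ACTG1 (gene 71, chromosome 17, 81509971 to 81512799), which encodes cytoplasmic gamma-actin, had 151500, 135700 and 146100 in WT and 127800, 139900 and 137200 in NUAK2-CR. These ranges overlapped and the log2 fold change was -0.10 (SE 0.068).

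The neighbours of ACTG1 were lower in NUAK2-CR. Over the 50 tested genes around ACTG1, 25 on each side, the median log2 fold change was -0.40, and set against it ACTG1 stood 0.31 higher on the log2 scale. For ACTB the neighbours' median was 0.10, which leaves 0.30. Medians for the same number of neighbours were 0.17 around ACTA2 and 0.05 around ACTG2, small beside the differences of those genes. Whether copy number differs between the groups was not tested.

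**Figure D2:**
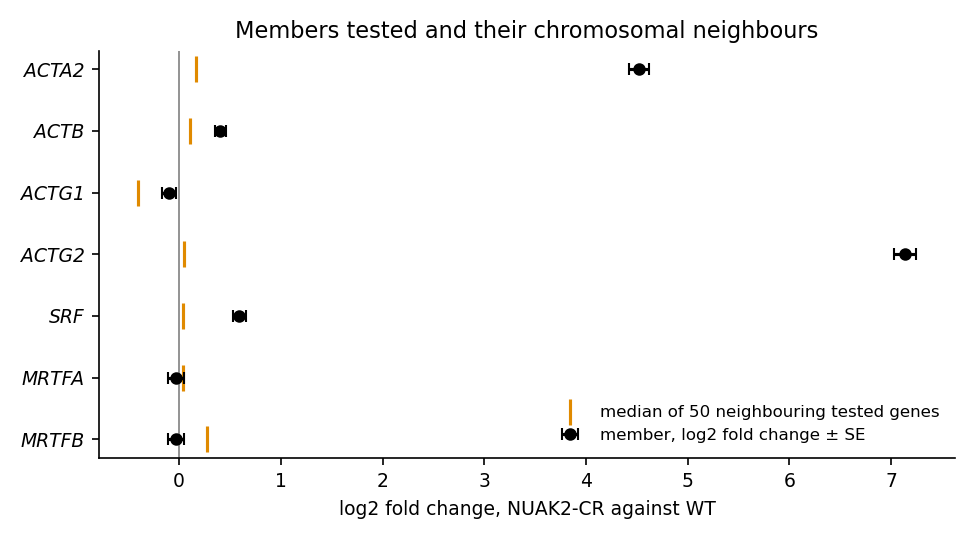
Log2 fold change, NUAK2-CR against WT, of the 7 tested members (points, with SE as bars) and the median of the 50 tested genes around each (orange ticks). ACTG2 at 7.14 and ACTA2 at 4.52 stand far from their neighbours, whereas ACTG1 at -0.10 stands above a regional median of -0.40.

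The striated muscle actins stayed near the limit of detection. ACTA1 (gene 58, chromosome 1), the skeletal isoform, had 14, 7 and 8 reads in WT and 5, 5 and 4 in NUAK2-CR. ACTC1 (gene 70, chromosome 15), the cardiac isoform, had 38, 4 and 10 reads in WT and 7, 3 and 0 in NUAK2-CR. Neither passed the filter on low counts, and neither group mean was higher in NUAK2-CR (8.22 and 5.59 normalized counts for ACTA1, 13.3 and 4.17 for ACTC1), while both carry a CArG box upstream. The contrast between the smooth and striated isoforms is plain in the plot of values by library.

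**Figure D3:**
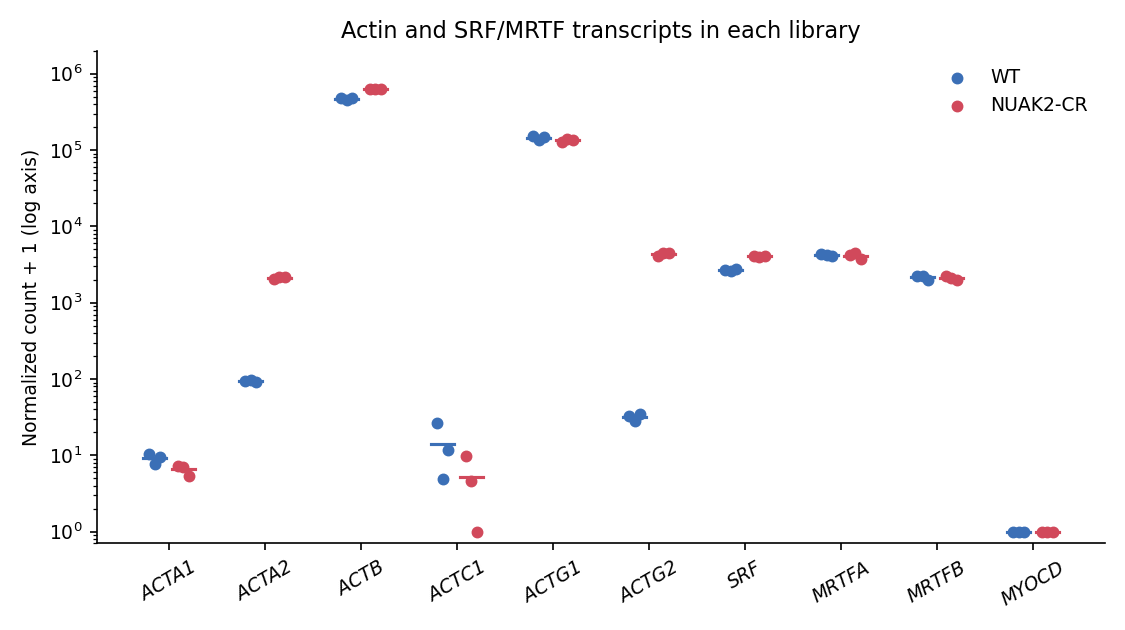
Normalized count plus 1 (log axis) of the 10 members in each library, with WT in blue and NUAK2-CR in red and a line at each group mean. ACTA2 and ACTG2 sit at 89.2 to 97.4 and 27.0 to 33.3 in WT and at 2023 to 2200 and 4082 to 4480 in NUAK2-CR, and MYOCD is at 0 in every library.

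Stretches as long as a read were nearly all particular to 1 isoform by sequence. Between the 6 coding sequences, nucleotide identity ranged from 81.8% for ACTA2 and ACTB to 91.3% for ACTB and ACTG1, and it was 84.7% for ACTA2 and ACTG2. Of the 1402 windows of 100 bases, the read length, along the ACTG2 canonical transcript (GENCODE v44), 0 occurred unchanged in a transcript of another gene, and the same was true of the 1250 windows of ACTA2 and the 1820 of ACTG1. For ACTB, 3 of 1713 windows also occurred in a pseudogene, ACTBP2. Reads with mismatches were not considered. Among 8 close copies of actin (ACTBL2 and members of the POTE family), 1 was tested, ACTBL2, at 25.6 ± 4.98 and 11.6 ± 7.57 normalized counts (SD, n = 3; adjusted p = 0.0742), and the sum over all 8 was 33.9 to 44.4 in WT and 21.7 to 39.5 in NUAK2-CR. The transcribed pseudogenes ACTG1P4, ACTG1P17, ACTG1P20 and ACTG1P25, not on that list, had 12 to 79 reads per library in WT and 2 to 53 in NUAK2-CR.

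Summed over the 6 isoforms, actin RNA went from 336600 ± 11680 to 420600 ± 3182 normalized counts per kilobase (SD, n = 3), and ACTB alone went from 261200 to 345800. The ACTB share of this pool was 77.6% ± 0.48 in WT and 82.2% ± 0.71 in NUAK2-CR (SD, n = 3), and the ACTG1 share was 22.4% ± 0.48 and 16.7% ± 0.67 (SD, n = 3). The smooth muscle isoforms remained minor parts: ACTA2 went from 0.0205% ± 0.0016 to 0.377% ± 0.015 and ACTG2 from 0.00608% ± 0.00049 to 0.688% ± 0.032 (SD, n = 3). The ratio of ACTB to ACTG1 per kilobase was 3.39, 3.58 and 3.46 in WT and 5.20, 4.75 and 4.83 in NUAK2-CR, with no overlap. Among 14432 genes ranked per kilobase, ACTB was first and ACTG1 the seventh in both groups, whereas ACTG2 moved from rank 12426 to 808 and ACTA2 from 10527 to 1694.

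**Figure D4:**
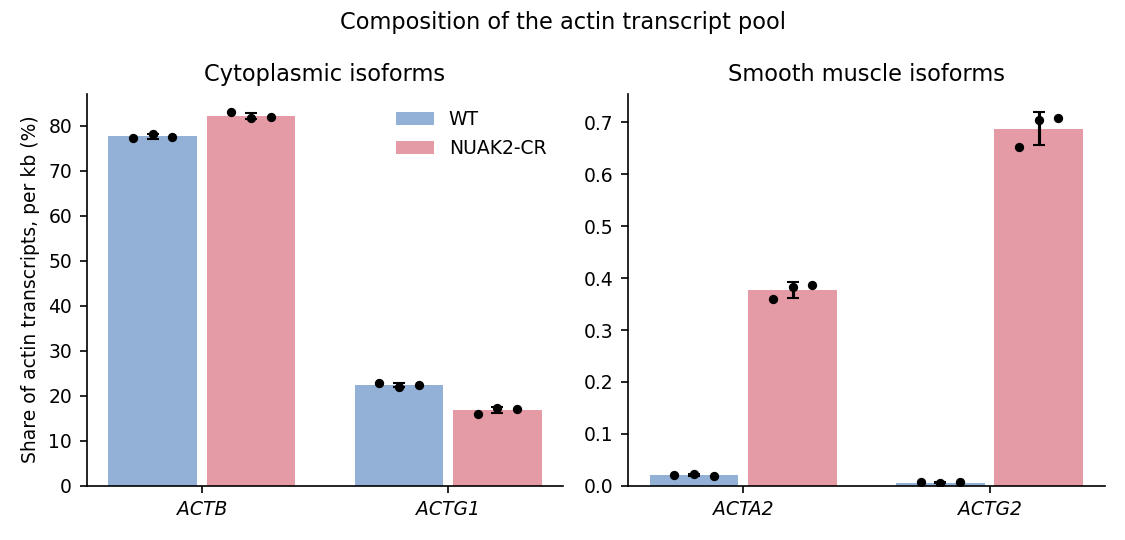
Share of each isoform in the actin RNA pool per kilobase of transcript, in percent, with bars for group means, SD as error bars and points for libraries. ACTB and ACTG1 fill the pool (77.6% and 22.4% in WT), and ACTA2 and ACTG2 stay under 1% in NUAK2-CR.

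Among the regulators, SRF lay higher in NUAK2-CR and the ranges of the MRTF genes overlapped. SRF (gene 6722, chromosome 6, 43171269 to 43181506) had 2646, 2634 and 2750 normalized counts across WT and 4033, 4024 and 4050 across NUAK2-CR. The NUAK2-CR libraries lay within a narrow band above all WT libraries, at 4036 ± 13.0 against 2676 ± 63.8 (SD, n = 3), 1.51-fold, a log2 fold change of 0.59 (SE 0.063). The 50 genes around SRF had a median of 0.04.

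MRTFA (gene 57591, chromosome 22, 40410289 to 40636719) had 4324, 4205 and 4109 normalized counts across WT and 4155, 4459 and 3755 across NUAK2-CR, and the WT range lay inside that of NUAK2-CR (log2 fold change -0.03, SE 0.074). MRTFB (gene 57496, chromosome 16, 13994774 to 14266779) had 2269, 2235 and 1983 in WT and 2255, 2097 and 2002 in NUAK2-CR, again with overlap (log2 fold change -0.03, SE 0.078). The medians of their neighbours were 0.04 and 0.27, so MRTFB stood 0.31 below its region. Per kilobase, MRTFA was at 3.80 ± 0.20 times the MRTFB level in WT and 3.79 ± 0.30 times in NUAK2-CR (SD, n = 3), while MRTFA relative to SRF was at 1.47 ± 0.068 and 0.956 ± 0.085 (SD, n = 3). The MRTFA gene only touches SGSM3, which had a log2 fold change of 0.02 (SE 0.091, adjusted p = 0.85). MYOCD (gene 93649, chromosome 17) had 0 reads in every library, which allows at most 3 in each by counting error alone, so that smooth muscle actin was expressed where myocardin RNA was not detected. Activity and location of the MRTF proteins are not read by RNA levels.

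Of the 7 tested members, 4 (ACTA2, ACTB, ACTG2 and SRF) passed the adjusted p threshold of 0.05, all as higher in NUAK2-CR, where 54.5% of all tested genes passed in either direction, 26.3% as higher and 28.2% as lower. Past an absolute log2 fold change of 2 as well were ACTA2 and ACTG2, against 4.72% of tested genes. The same 4 did not overlap between groups, as did 61.4% of tested genes. Since the members were picked on this contrast, nothing is read from these counts.

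The other genes of the pathway show what moved beside the members. The first list holds 35 genes known as SRF targets that answer to MRTFs, 32 of which were tested. Most are cytoskeletal or adhesion genes, and ANKRD1, CCN1 and CCN2 are also among them. Of these, 22 rose and 6 fell, 68.8% and 18.8% against 26.3% and 28.2% of all tested genes, and the median log2 fold change was 0.50 against -0.01 over all genes. The rises were small beside those of ACTA2 and ACTG2, and the largest was that of LMOD1. This leiomodin, which nucleates actin filaments in smooth muscle, rose from 39.1 ± 12.1 to 105.2 ± 8.32 normalized counts (SD, n = 3; log2 fold change 1.42, SE 0.27, adjusted p = 0.00078). ANKRD1, a stress-induced ankyrin repeat protein, rose from 941.6 ± 170.4 to 2235 ± 94.8 (SD, n = 3; log2 fold change 1.25, adjusted p = 1.73e-06), and CALD1, the actin-binding caldesmon, from 10920 ± 1096 to 25820 ± 499.0 (SD, n = 3; 1.24, adjusted p = 7.11e-08). TGFB1I1, the focal adhesion protein Hic-5, and KANK2, an adhesion adaptor, had log2 fold changes of 1.15 (adjusted p = 4.92e-07) and 1.02 (adjusted p = 7.08e-08).

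Not all targets of that list followed the smooth muscle actins. FLNC, the muscle filamin, fell from 241.6 ± 64.2 to 12.5 ± 4.01 normalized counts (SD, n = 3; log2 fold change -4.25, SE 0.31, adjusted p = 2.42e-07). TAGLN2, a transgelin of non-muscle cells, fell from 52930 ± 3134 to 24720 ± 1036 (SD, n = 3; -1.10, adjusted p = 7.84e-08), and TPM3, a tropomyosin, had -0.56 (adjusted p = 9.25e-06). SMTN, the smooth muscle protein smoothelin, and FHL1, a LIM-domain protein, had -0.44 (adjusted p = 0.00186) and -0.31 (adjusted p = 0.00163). The medians of the neighbours were 0.0004 around FLNC, -0.57 around TAGLN2, -0.42 around TPM3 and 0.13 around SMTN. FHL1 did not lie below the median of its neighbours. Among the higher genes TPM2, another tropomyosin (0.18, adjusted p = 0.037, named after its value was seen), did not lie above that of its own. The 3 untested targets, MYH11, DES and MYL9, had means under 4 normalized counts in both groups. MYH11 and DES encode the smooth muscle myosin heavy chain and desmin, which define contractile smooth muscle.

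Genes reached through the ternary complex factors held the largest rises among the pathway lists. Of 11, 9 were tested, and 6 rose (66.7% against 26.3% of all tested genes) and 1 fell (11.1% against 28.2%). The median log2 fold change was 0.60. EGR2, an immediate early zinc finger factor, rose from 54.7 ± 7.29 to 897.1 ± 56.1 normalized counts (SD, n = 3; log2 fold change 4.05, SE 0.14, adjusted p = 4.4e-10). Its relatives EGR3 and EGR1 had 2.14 (SE 0.25, adjusted p = 1.54e-05) and 1.29 (SE 0.16, adjusted p = 2.63e-05). IER2 and JUNB, also immediate early genes, had 0.76 (adjusted p = 2.4e-06) and 0.60 (adjusted p = 3.9e-05), and MCL1, a survival factor, had -0.29 (adjusted p = 0.00187), no lower than its neighbours. FOS, named after its value was seen as the classical gene of this class, had 97.0 ± 30.6 and 111.4 ± 20.4 (SD, n = 3; adjusted p = 0.517).

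Partners of SRF and other proteins with RPEL repeats were mostly higher. Of 16, 14 were tested, 9 rose (64.3% against 26.3% of all tested genes) and 1 fell (7.14% against 28.2%). The median log2 fold change was 0.42. MICAL2, an oxidase that takes actin filaments apart and is linked to MRTF signalling, rose from 3054 ± 543.5 to 9122 ± 63.1 normalized counts (SD, n = 3; log2 fold change 1.58, SE 0.10, adjusted p = 1.09e-07). SCAI, which encodes a repressor of MRTF activity, rose from 358.5 ± 8.10 to 991.4 ± 63.2 (SD, n = 3; 1.47, SE 0.093, adjusted p = 7.29e-08). The ternary complex factor ELK3 had 0.72 (adjusted p = 1.82e-06), and PHACTR1 and PHACTR2, phosphatase regulators that bind actin by RPEL repeats, had 0.78 (adjusted p = 0.00183) and 0.71 (adjusted p = 3.73e-05). Their relative PHACTR4 had -0.46 (adjusted p = 5.1e-05), close to the median of its neighbours at -0.44. MICAL2 and SCAI, known to act on MRTFs in opposite ways, were thus both higher.

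**Figure D5:**
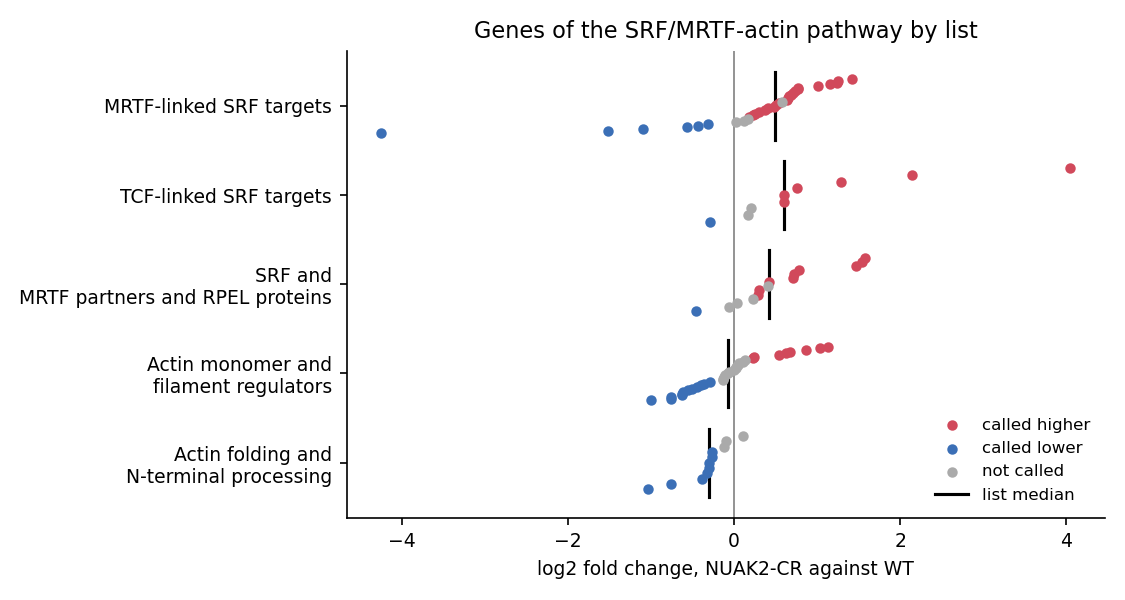
Log2 fold change, NUAK2-CR against WT, of the tested genes of each pathway list, coloured by edgeR call at an adjusted p under 0.05, with a line at each list's median. The medians are 0.50 and 0.60 for the MRTF-linked and TCF-linked targets and -0.30 for actin folding, where no gene was called higher.

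Proteins that bind actin monomers or build and cap filaments were called in both directions. All 33 were tested, 8 rose (24.2% against 26.3% of all tested genes), 12 fell (36.4% against 28.2%) and 13 were not called, with a median of -0.08. The share that rose was near that of all genes. GSN, the severing protein gelsolin, rose from 2876 ± 99.5 to 6295 ± 342.8 normalized counts (SD, n = 3; log2 fold change 1.13, adjusted p = 5.4e-08), and the formins FMNL3 and FMNL2 had 1.04 (adjusted p = 4.58e-07) and 0.86 (adjusted p = 1.04e-06). DSTN, a depolymerizing factor of the cofilin family, and TMSB10, a thymosin that holds monomers, had 0.68 (adjusted p = 6.32e-06) and 0.63 (adjusted p = 9.89e-05). On the other side, PFN2, a profilin that delivers monomers to filament ends, fell from 17410 ± 1891 to 8685 ± 218.8 (SD, n = 3; -1.003, adjusted p = 6.86e-07). CAPZA1, a subunit of capping protein, had -0.76 (adjusted p = 8.07e-07), the formins DIAPH3 and FHOD1 had -0.75 (adjusted p = 1.27e-05) and -0.62 (adjusted p = 2.91e-05), and CAP1, which recycles actin monomers, had -0.62 (adjusted p = 5.78e-06). The medians of the neighbours were -0.09 around PFN2, -0.55 around CAPZA1, -0.49 around DIAPH3, 0.03 around FHOD1 and -0.44 around CAP1. Formins were found on both sides.

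The chaperonin subunits that fold actin were lower, and the enzymes that finish it were not called. All 11 genes of this list were tested, and 8 fell (72.7% against 28.2% of all tested genes), all of them subunits of the chaperonin CCT, with a median over the list of -0.30. CCT3 fell from 27710 ± 1712 to 13570 ± 406.3 normalized counts (SD, n = 3; log2 fold change -1.03, SE 0.070, adjusted p = 1.25e-07) and CCT5 from 22890 ± 589.4 to 13500 ± 514.0 (SD, n = 3; -0.76, adjusted p = 9.26e-07). CCT4, TCP1 and CCT6A had -0.38 (adjusted p = 0.000813), -0.33 (adjusted p = 0.00117) and -0.30 (adjusted p = 0.00214). The medians of the neighbours were -0.41 around CCT3, -0.23 around CCT5, 0.19 around CCT4, -0.08 around TCP1 and 0.14 around CCT6A. Of the enzymes that trim, acetylate and methylate actin, ACTMAP had a log2 fold change of 0.11 (SE 0.10), NAA80 of -0.12 (SE 0.15) and SETD3 of -0.09 (SE 0.084), all named after their values were seen. No gene of this list was called higher by edgeR, also none at an unadjusted p under 0.05 and 0 by DESeq2. In the same libraries ACTB RNA was higher.

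Promoters with a CArG box were compared with the rest as a description. Of the MRTF-linked targets with a window, 8 of 30 (26.7%) held a box: ACTN1, CNN2, FHL1, FHL2, FLNA, SMTN, TGFB1I1 and TPM4. Of these, 5 were higher and 2 lower. Across the genome, 171 tested genes other than the members held a box, 61 of which were higher (35.7%) and 47 lower (27.5%), while of 11473 tested genes with a window and no box 2906 were higher (25.3%) and 3447 lower. The medians were 0.07 and -0.03. Genes with a box were found among the higher, the lower and the uncalled genes. Of the tested members with a box, ACTG2 and SRF were higher and ACTG1 was not.

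The genes whose pattern over the 6 libraries was most like that of ACTA2, by Euclidean distance of centred log2 values, were GGT5, TRDC, MFAP4, ANO1 and EGR2, at 0.405 to 0.689. GGT5, a gamma-glutamyl transferase, went from 21.2 ± 3.17 to 560.4 ± 27.5 normalized counts (SD, n = 3), and MFAP4, a microfibril-associated matrix protein, from 69.8 ± 7.56 to 2126 ± 285.2 (SD, n = 3). ANO1, a chloride channel, went from 12.1 ± 1.66 to 236.2 ± 22.1 (SD, n = 3). TRDC, a T cell receptor constant segment, had 0 reads in each WT library and 34, 53 and 47 in NUAK2-CR. The nearest to ACTG2 were LINC00968, KCNC1, NOG, SLC14A1 and ADAMTS18, at 1.01 to 1.95, so nothing lay as close to ACTG2 as these lay to ACTA2. KCNC1, a potassium channel, went from 48.2 ± 7.85 to 3418 ± 228.7 and NOG, a secreted inhibitor of BMPs, from 33.9 ± 11.9 to 1714 ± 63.7 (SD, n = 3). ADAMTS18, a secreted protease, went from 17.4 ± 7.76 to 924.5 ± 129.2 (SD, n = 3), SLC14A1, a urea transporter, had 0, 4 and 0 reads in WT and 635, 560 and 750 in NUAK2-CR, and the noncoding LINC00968 had 4, 0 and 2 and 199, 280 and 322. Any gene that is low in WT and high in NUAK2-CR by a like amount in these log2 values is near by this measure, since tight groups fix the pattern. The values carry a prior count of 2, which narrows differences from 0 reads. TRDC, for example, had a log2 fold change of 8.73 in the fit against 4.52 for ACTA2.

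Markers of cells known for smooth muscle actin were read beside these values. Of 7 smooth muscle markers outside the actins, all of which also stand on the MRTF-linked list, 5 were tested, 2 rose and 2 fell. Of all tested genes, 26.3% rose and 28.2% fell. LMOD1 rose as given above, and TAGLN, the smooth muscle transgelin, rose from 2532 ± 384.1 to 3696 ± 385.3 normalized counts (SD, n = 3; log2 fold change 0.54, adjusted p = 0.000918). SMTN fell, as did CNN1, the smooth muscle calponin, at 94.9 ± 7.22 and 33.2 ± 7.94 (SD, n = 3; -1.52, adjusted p = 0.000393). The summed level of the list was 5551 to 6960 in WT and 6020 to 7105 in NUAK2-CR, and MYH11 and DES were at or near 0 in both. That sum is mostly TAGLN and SMTN, which moved in opposite directions.

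Of 6 pericyte markers, 5 were tested, 2 rose and 3 fell, where 26.3% of all tested genes rose and 28.2% fell. CSPG4 (log2 fold change 1.58, adjusted p = 2.38e-06) and PDGFRB (1.03, adjusted p = 1.91e-07) were higher. MCAM (-0.76, adjusted p = 4.83e-06), RGS5 (-0.96, adjusted p = 0.000415) and KCNJ8 (-1.34, adjusted p = 0.000469) were lower. The summed level of the list was 14210 to 17160 in WT and 10920 to 11410 in NUAK2-CR. Of 7 fibroblast markers, 3 were higher (42.9% against 26.3% of all tested genes) and 3 lower (42.9% against 28.2%). Their sum was 60560 to 64760 in WT and 75350 to 80130 in NUAK2-CR. COL1A2 made up most of that sum, with means of 34350 in WT and 58930 in NUAK2-CR. DCN, the matrix proteoglycan decorin, went from 2.71 ± 3.03 to 201.4 ± 8.42 (SD, n = 3), COL1A2 had a log2 fold change of 0.78 (adjusted p = 7.03e-07), and THY1, COL1A1 and PDGFRA had -0.54 (adjusted p = 0.00022), -1.15 (adjusted p = 5.54e-06) and -2.54 (adjusted p = 1.65e-06). Of 10 glioblastoma and astrocyte markers, 8 were tested and 6 fell (75.0% against 28.2% of all tested genes), and the sum was 333400 to 369300 in WT and 147200 to 154100 in NUAK2-CR. GFAP, the astrocyte filament protein, fell from 88320 ± 5494 to 14980 ± 1129 (SD, n = 3; -2.56, adjusted p = 2.74e-10), and SOX2, CD44, NES and S100B had log2 fold changes of -1.11 to -2.60. OLIG2 was at 0 in every library.

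Striated muscle, endothelial and leukocyte markers were low. Of 23 striated muscle markers, 4 were tested and 4 had no reads, and their sum was 260.1 to 331.8 in WT and 357.0 to 438.0 in NUAK2-CR. All 5 endothelial markers were tested, 2 rose and 1 fell, where 26.3% of all tested genes rose and 28.2% fell. The sum of these 5 was 248.4 to 335.7 in WT and 185.5 to 218.4 in NUAK2-CR. PECAM1, a junction protein, went from 0.443 ± 0.767 to 15.8 ± 0.915 normalized counts (SD, n = 3; adjusted p = 0.000549) and VWF, the von Willebrand factor, from 17.5 ± 6.72 to 58.5 ± 7.75 (SD, n = 3; adjusted p = 0.00135), both named after their values were seen, while KDR, a VEGF receptor, fell from 251.1 ± 48.4 to 106.0 ± 7.17 (SD, n = 3; adjusted p = 0.000124). The sum of 5 leukocyte markers was 658.3 to 740.6 in WT and 204.4 to 253.3 in NUAK2-CR, mostly CD68, with AIF1 at 0. The part of any of these cell states in the ACTA2 and ACTG2 values was not tested.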

How the data were processed

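Poly(A) RNA of 3 WT and 3 NUAK2-CR libraries of U251 cells had been sequenced as paired reads, and the authors made the deposited counts per gene from them with Trimmomatic for trimming, HISAT2 for alignment (hg38) and featureCounts for counting, all on default settings. The default of featureCounts ignores strand. Versions and annotation are not given in the sources used here. The deposited counts are raw whole reads per gene identifier, 28395 in all, of which 27745 matched a symbol and 650 did not. Depth ran from 29648445 to 55574081 reads, and low counts set the precision of the rare isoforms.

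Genes with enough reads (filterByExpr, 14873) were fitted with edgeR 4.0.16 in R 4.3.3, with TMM scaling, glmQLFit, glmQLFTest and Benjamini-Hochberg adjustment, called at an adjusted p under 0.05 and, as a stricter call, an absolute log2 fold change over 2. The procedure was tested on simulated data. SE is the log2 fold change over the root of F. The prior count was 0.125, and 2 for the log2 values used for the distances. Levels between genes were compared per kilobase of the canonical GENCODE v44 transcript. RefSeq windows of GRCh38.p14 gave the promoters, searched for the CArG box after values had been seen.

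The members and all gene lists were chosen with earlier results of these data known. Named were all members, NUAK2, genes overlapping a member, the 5 nearest genes to ACTA2 and to ACTG2, the defining markers, and per pathway list up to 5 called genes per direction with the largest fold whose mean reached 100 normalized counts in one of the groups. One further list planned for the pathway is not reported here, for a reason unrelated to its values. Others are said to have been named after their values were seen. Alternatives were DESeq2 1.42.0, other filters, scalings, prior counts and fold thresholds, the replicate block, leaving out each library, and regional medians of 25 genes on each side.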

Additional observations from a re-analysis of the deposited data

How the results depend on the processing

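The log2 fold changes of the 7 tested members kept close to the values given under DESeq2, both other filters, RLE and library-size scaling, a prior count of 2, the replicate block and without each library, with ranges of 7.05 to 7.20 for ACTG2, 4.49 to 4.58 for ACTA2, 0.38 to 0.43 for ACTB, 0.58 to 0.61 for SRF and -0.14 to -0.04 for ACTG1, and with ranges across 0 for MRTFA (-0.09 to 0.03) and MRTFB (-0.09 to 0.01). Subtracting the regional median moved 4 of them beyond the replicate spread, to 4.35 for ACTA2, 0.30 for ACTB, 0.31 for ACTG1, which changed sign, and -0.31 for MRTFB. As shares of reads in place of shares per kilobase, ACTB was at 76.6% and 81.6% of actin reads in WT and NUAK2-CR, ACTG1 at 23.4% and 17.6%, ACTA2 at 0.0151% and 0.278% and ACTG2 at 0.00497% and 0.566%.

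Of the counts of called genes per list, 201 of 215 values stayed within 1.5 times the count given. Those past a log2 fold change of 2 depend on that threshold by construction. With a threshold of 1 they were 8 for MRTF-linked targets, 3 for SRF partners, 3 for filament regulators and 1 for folding, and with none 28, 10, 20 and 8 in that order, with 7 for TCF-linked targets. With at least 10 counts in every library, no MRTF-linked target passed 2 (FLNC left the genes tested). Without each library in turn, the TCF-linked count past 2 ran from 1 to 2, being 1 without WT replicate 1 or NUAK2-CR replicate 3, and the folding genes called higher ran from 0 to 1, being 1 without WT replicate 1. Beyond the regional median, chosen after seeing the data, 0 TCF-linked targets were lower.

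Libraries share replicate numbers between the groups, but their deviations from the group means correlated at 0.043, -0.035 and 0.048 for numbers 1, 2 and 3, so the numbers do not pair them. Under the replicate block, 21 MRTF-linked targets were higher and 6 lower, and over all genes 8167 were called in place of 8107. The call counts over all genes past 2 were 702, 969 without the filter, 339 with at least 10 counts in every library and 903 by DESeq2. ACTA1, ACTC1 and MYOCD had too few reads to enter the fit and were not tested.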
